A study of Mus musculus with 67 samples.

Results

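The genes described here are 10 enzymes of glutathione and NRF2-linked detoxification: the alpha-class glutathione S-transferases Gsta1, Gsta2, Gsta3 and Gsta4, the mu-class transferases Gstm1 and Gstm3, the glutamate-cysteine ligase subunits Gclc and Gclm, the quinone reductase Nqo1 and the thioredoxin reductase Txnrd1. They were chosen by name, and all 10 were rows of the 29579-gene expression table. Bulk RNA was measured in 67 mouse libraries, 49 of intestinal organoids in 10 media and 18 of small intestinal crypts in 9 groups. Organoids were grown in Matrigel from proximal small intestinal crypts, and those in the full 8C medium, called hyper-organoids, were compared with cultures in the established ENR medium. Of small molecules, 8C held valproic acid (VPA, which inhibits histone deacetylases) at 500 µM, EPZ6438 (which blocks EZH2, a histone methyltransferase) at 2 µM, LDN193189 (a blocker of BMP receptors) at 0.2 µM, GSK-3 Inhibitor XV at 0.1 µM and Pexmetinib at 1 µM. Its proteins were bFGF at 20 ng/mL, EGF at 50 ng/mL and R-Spondin 1 as conditioned medium at 10%. In ENR the proteins were R-Spondin 1 at 500 ng/mL, Noggin at 100 ng/mL and EGF at 50 ng/mL. The other media were 8C without both drugs (8C -VE), without VPA (8C -V), without EPZ6438 (8C -E), or without the GSK3 inhibitor (8C -GSK3i), Pexmetinib (8C -Pex), EGF (8C -EGF) or bFGF (8C -bFGF), and ENR with both drugs (ENR +VE), whose doses the labels do not give. All media held 1 mM N-acetylcysteine, itself a glutathione precursor, so no organoid group lacked it. There were 7 libraries each of 8C, ENR, 8C -VE and 8C -E, 6 of 8C -V and 3 of each other medium. Crypts came from unirradiated mice (Normal) and from mice given 12 Gy, isolated 1, 2, 3 or 5 days later (IR), with or without daily gavage of 40 mg/kg VPA and 0.6 mg/kg EPZ6438 (IR +VE), with 2 libraries in each group. The study's methods give C57BL/6 females of 8 weeks for the irradiation work and mice of 6 to 12 weeks for organoids. The study's figure legends count mice as replicates for some of these groups, but the labels tie no library to a mouse, so p-values measure the spread between these libraries, whatever its source.

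Glutathione is a tripeptide thiol, and glutamate-cysteine ligase, made of the catalytic subunit Gclc and the modifier subunit Gclm, carries out the rate-limiting step of its synthesis. Glutathione S-transferases couple it to electrophiles, and Gsta4 is known for its preference for 4-hydroxynonenal, a product of lipid peroxidation. Nqo1 reduces quinones and Txnrd1 keeps thioredoxin reduced. Many of these genes are textbook targets of NRF2 (Nfe2l2), a transcription factor that KEAP1 holds at a low level until electrophiles or oxidants release it. In the small intestine the alpha-class transferases are abundant in absorptive enterocytes.

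In the GENCODE vM21 annotation of the mouse genome (mm10), all 10 are protein-coding genes. Gsta4 (chr9:78182774-78209349), Gsta1 (chr9:78230656-78242684) and Gsta2 (chr9:78331018-78355788, minus strand) lie together on chromosome 9, as does Gclc (chr9:77754535-77794485), whereas Gsta3 lies alone at chr1:21240589-21265661. Gstm1 (chr3:108012255-108017973) and Gstm3 (chr3:107963696-107969283) lie close together on the minus strand of chromosome 3, with Gstm2 between them. That chromosome also carries Gclm (chr3:122245557-122270732). Nqo1 is at chr8:107388225-107403206 on the minus strand and Txnrd1 at chr10:82833951-82897712. Several of these genes have near-identical copies. The Gsta1 transcript was 99.5% identical to that of the neighbouring gene Gm3776 and 97.2% identical to that of Gsta2, while Gsta2 was 98.3% identical to Gm10639. Of all stretches of 100 bases in Gm3776, 71.4% occurred unchanged in Gsta1, and 19.8% of those in Gsta1 occurred in Gsta2. How the authors' counting split reads among such copies is not given in the sources used here, so the levels of Gsta1 and Gsta2 are uncertain. By contrast, Gsta3 and Gsta4 shared no such stretch with any other alpha-class transcript compared, and Gstm1 shared 1.68% with Gstm3.

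Because Gsta1 and Gsta2 are read as a pair throughout, the 250 bases before their start sites are shown first. They come from RefSeq on GRCm38.p6, 5′ to 3′ on the strand of the gene, at chr9:78230419-78230668 for Gsta1 (plus strand) and chr9:78347146-78347395 for Gsta2 (minus strand). Capitals mark runs of at least 12 bases that both windows share.
Gsta1: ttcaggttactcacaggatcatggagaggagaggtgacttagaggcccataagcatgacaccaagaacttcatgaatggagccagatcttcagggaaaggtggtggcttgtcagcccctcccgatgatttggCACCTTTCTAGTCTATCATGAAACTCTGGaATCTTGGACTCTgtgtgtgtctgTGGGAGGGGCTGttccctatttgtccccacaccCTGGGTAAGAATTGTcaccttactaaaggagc
Gsta2: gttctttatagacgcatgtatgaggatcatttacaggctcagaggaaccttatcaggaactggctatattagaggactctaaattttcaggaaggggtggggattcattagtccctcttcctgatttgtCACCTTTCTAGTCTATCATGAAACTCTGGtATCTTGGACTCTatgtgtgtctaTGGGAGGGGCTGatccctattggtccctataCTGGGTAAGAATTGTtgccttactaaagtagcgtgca
Over 239 aligned bases the windows were 77.0% identical. The longest shared run was 29 bases, and it began 118 bases before the Gsta1 start site and 121 bases before that of Gsta2.

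A second set is shown because NRF2 with a small MAF partner recognises the antioxidant response element, whose core is TGACNNNGC. Windows of 250 bases before the start site were held for 8 of the 10 members (11 windows in all), and were not held for Gclc and Gsta4. On either strand, 3 of those 8 members had the core in a window, compared with 11.5% of 27025 genes and 10.2% of 32851 windows. In capitals is the core as it reads on the printed strand, at chr1:21240335-21240584 for Gsta3, chr3:122245307-122245556 for Gclm and chr10:82858956-82859205 for Txnrd1, all on the plus strand of GRCm38.p6 from RefSeq.
Gsta3: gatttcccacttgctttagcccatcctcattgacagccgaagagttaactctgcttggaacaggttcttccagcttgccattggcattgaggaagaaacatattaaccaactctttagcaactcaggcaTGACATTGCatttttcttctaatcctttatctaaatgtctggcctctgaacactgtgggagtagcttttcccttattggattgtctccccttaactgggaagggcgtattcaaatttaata
Gclm: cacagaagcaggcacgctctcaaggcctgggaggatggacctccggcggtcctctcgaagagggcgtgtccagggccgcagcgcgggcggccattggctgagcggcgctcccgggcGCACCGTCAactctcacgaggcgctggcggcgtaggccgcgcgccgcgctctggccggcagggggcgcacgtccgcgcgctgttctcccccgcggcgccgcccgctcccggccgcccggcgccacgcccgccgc
Txnrd1: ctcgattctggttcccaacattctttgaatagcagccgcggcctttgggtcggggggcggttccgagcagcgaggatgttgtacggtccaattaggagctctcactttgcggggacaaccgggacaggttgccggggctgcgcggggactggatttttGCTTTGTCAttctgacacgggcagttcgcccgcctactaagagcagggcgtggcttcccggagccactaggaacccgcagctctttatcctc
The match began 121 bases before the start site in Gsta3. In Gclm it began 134 bases before and in Txnrd1 92 bases before, both as the reverse complement, and Txnrd1 had it in 1 of its 3 windows. A match of these letters is a description of the window only.

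Values are TPM, the share of a library's transcripts after scaling to transcript length, so that levels can be compared between genes. The column sums were 983800 to 988100 in organoid libraries and 819300 to 910900 in crypt libraries. Counts are not in the file, so the sequencing depth is unknown and no counting interval is given. Mitochondrial transcripts took 1.52% to 6.64% of the organoid sums and 10.6% to 48.4% of the crypt sums. The organoid libraries numbered 7 (1 each of 8C, ENR, 8C -VE and 8C -E) stood apart, with mitochondrial shares of 4.69% to 6.64%, and the libraries numbered 1 to 3 and 4 to 6 differed in several members. The summed level of 12 enterocyte markers was 2354 to 5502 TPM in 8C and 4706 to 19780.2 TPM in ENR. Summed epithelial markers (6 genes) were 6941 to 14004 TPM in organoid libraries and 3886 to 8313 TPM in crypt libraries. Summed immune markers reached at most 16.9 TPM and stromal and muscle markers at most 5.69 TPM in any organoid library, and immune markers lay between 5.88 to 46.9 TPM in crypts. Differences were tested with limma on log2(TPM + 1), and a gene was called when its Benjamini-Hochberg adjusted p over all genes tested was under 0.05 and its change at least 2-fold. Fold changes are on that scale, which understates the change of genes with few TPM.

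Together the 10 members made up 2580.1 ± 953 TPM (SD, n = 7) in 8C and 4963 ± 1089 TPM (SD, n = 7) in ENR. Gsta4, Gstm1 and Gstm3 took 69.0% to 77.2% of that sum in every medium. Gstm1 had the highest mean of the 10 in ENR and ENR +VE, Gstm3 in 8C -GSK3i, and Gsta4 in each of the other 7 media. Mean levels differed most across media for Gsta2, 10.8-fold between ENR at 104 ± 40.6 TPM (SD, n = 7) and 8C -Pex at 9.65 ± 3.94 TPM (SD, n = 3). They differed least for Txnrd1, 1.41-fold between 8C -EGF at 213 ± 11.4 TPM (SD, n = 3) and 8C -V at 151 ± 54.3 TPM (SD, n = 6). ENR had the highest mean for 6 members (Gsta2, Gsta3, Gstm1, Gclc, Gclm and Nqo1) and ENR +VE for Gsta1 and Gstm3. Gsta4 went the other way, with the lowest means in ENR, 8C -EGF and ENR +VE, the last at 466 ± 4.69 TPM (SD, n = 3). When media were ordered by mean, neighbours overlapped in range for all 9 pairs of Gsta3, Gsta4, Gstm3, Gclc, Gclm and Txnrd1. The ranges of neighbours separated at 1 step for each of the others: below the ENR media for Gsta2 and Gstm1, between ENR and ENR +VE for Nqo1, and above 8C -EGF for Gsta1.

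**Figure D1:**
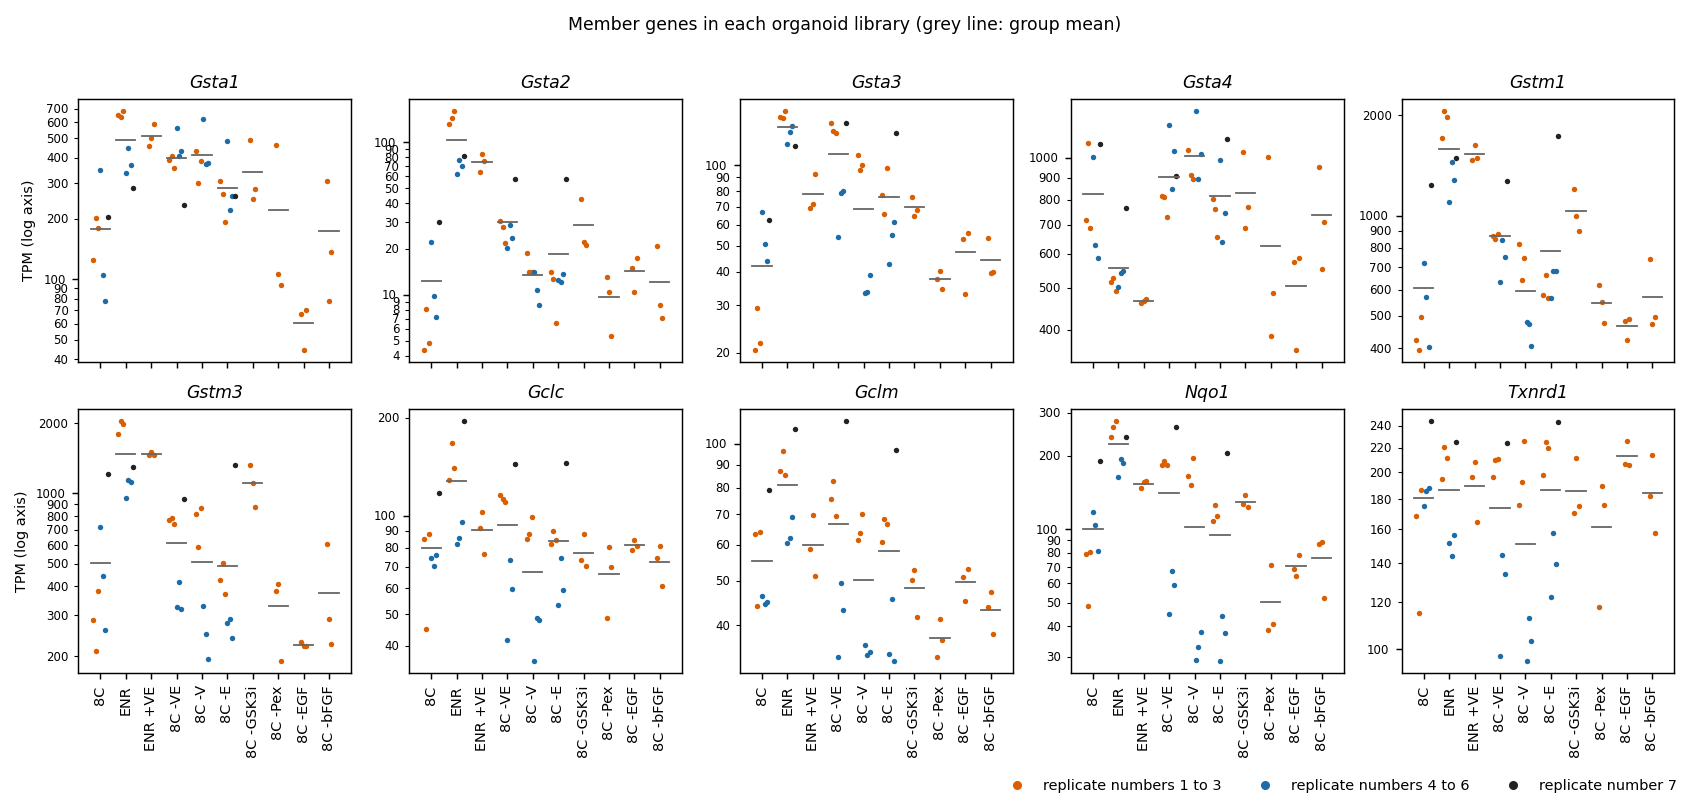
Level in TPM (log axis) of each of the 10 genes in every organoid library, by medium, with the group mean as a grey line and colour giving the replicate number of the library. Gsta2 lay between 4.34 and 30.0 TPM in 8C and between 61.6 and 161 TPM in ENR, whereas Txnrd1 stayed between 95.5 and 244 TPM in all media.

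The comparison of 8C with ENR asked how the hyper-organoid culture differs from the established one. Transferases of both classes and Nqo1 were lower in 8C, the glutamate-cysteine ligase subunits differed by less than 2-fold, and Txnrd1 was close to level. Of the 10 members, 6 fell and none rose by the rule above, while 15.2% of 12665 genes tested were called in either direction and 3.31% were called lower. Gsta2 changed most. Its levels were 4.34 to 30.0 TPM with a median of 8.13 in 8C and 61.6 to 161 TPM with a median of 81.9 in ENR. The ranges did not overlap, and Gsta2 was 9.06-fold lower in 8C (log2 -3.18 ± 0.37 SE, limma adjusted p = 4.4e-06). Gsta3, an alpha-class enzyme encoded apart from the others, was also separated, at 20.4 to 66.8 TPM with a median of 43.9 in 8C and 118 to 159 TPM with a median of 140.1 in ENR (log2 -1.82 ± 0.24 SE, limma adjusted p = 1.5e-05). Gsta1 was 78.1 to 349.7 TPM with a median of 179 in 8C and 283 to 687 TPM with a median of 450.1 in ENR, so that the highest 8C library lay above the lowest ENR libraries (log2 -1.53 ± 0.30 SE, limma adjusted p = 0.00062). Its near-copy Gm3776 moved alongside, at 79.2 to 244 TPM in 8C and 242 to 566 TPM in ENR. Gsta4 was the exception of the class: its levels were 585 to 1080.3 TPM with a median of 717 in 8C and 493 to 766 TPM with a median of 528 in ENR, and its log2 difference of 0.54 ± 0.15 SE passed the adjusted p alone (limma adjusted p = 0.012) and not the 2-fold requirement.

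Both mu-class transferases fell in 8C. Gstm1 had 394 to 1232 TPM with a median of 497 in 8C and 1096 to 2065 TPM with a median of 1494 in ENR (log2 -1.47 ± 0.23 SE, limma adjusted p = 8.4e-05), and 1 8C library, number 7, reached into the ENR range. Gstm3 had 212 to 1206 TPM with a median of 381 in 8C and 956 to 2039 TPM with a median of 1296 in ENR (log2 -1.75 ± 0.33 SE, limma adjusted p = 0.00051), again with the number 7 library of 8C highest. Nqo1 fell as well, from 164 to 277 TPM with a median of 238 in ENR to 48.7 to 189.8 TPM with a median of 81.8 in 8C, with the number 7 library of 8C above the lowest ENR libraries (log2 -1.23 ± 0.23 SE, limma adjusted p = 0.00039). Gclc and Gclm were lower by less than the 2-fold required, with log2 differences of -0.66 ± 0.22 SE and -0.55 ± 0.17 SE and limma adjusted p of 0.027 and 0.016. Txnrd1 had 115 to 244 TPM with a median of 186 in 8C and 144 to 225 TPM with a median of 195 in ENR, a log2 difference of -0.052 ± 0.15 SE (limma adjusted p = 0.83). All 6 calls held when the libraries numbered 7 were left out, with log2 differences from -3.47 for Gsta2 to -1.38 for Nqo1.

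Of 12 enterocyte markers, 10 were called lower in 8C and none higher, with the sums given above. Of 4 Paneth, 6 goblet and 2 tuft cell markers, 2, 3 and 2 were called lower. Of 5 crypt base stem cell markers, 1 (Olfm4) was called lower, and their sum was 526 to 1621 TPM in 8C and 2054 to 3632 TPM in ENR. Of 4 enteroendocrine markers none was called or had an unadjusted p under 0.05 in limma, with sums of 568.1 to 1427 TPM in 8C and 543 to 788 TPM in ENR. In bulk RNA, fewer cells of a type and less RNA per cell cannot be told apart. Rbp2, an enterocyte retinol-binding protein and a member of that marker list, was also the gene most like Gsta1 across the 49 organoid libraries (Pearson r = 0.890 on log2(TPM + 1)). The part of cell makeup in the transferase differences was not tested.

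The basal medium without either drug, 8C -VE, was set beside ENR and beside 8C to see where between them each member lay. These comparisons share libraries with each other and with 8C against ENR, so the values are given side by side. Against ENR, Gsta2 and Gstm3 were called lower in 8C -VE, 2 of 10 members with 3.19% of all genes called and 2.07% called lower. Gsta2 was 20.4 to 57.4 TPM with a median of 28.0 in 8C -VE, wholly below its ENR range and overlapping its 8C range (log2 -1.75 ± 0.25 SE, limma adjusted p = 0.00058 against ENR). Gstm3 was 320.2 to 945 TPM with a median of 739, also below every ENR library (log2 -1.33 ± 0.27 SE, limma adjusted p = 0.0058). Gstm1 (631 to 1273 TPM with a median of 851) differed from ENR by log2 -0.86 ± 0.16 SE, limma adjusted p = 0.003, under 2-fold, and Gsta4 by log2 0.70 ± 0.12 SE, limma adjusted p = 0.0017. Gsta1 was 235 to 565 TPM with a median of 408 in 8C -VE, overlapping ENR (log2 -0.25 ± 0.22 SE, limma adjusted p = 0.58), and Gsta3 was 54.0 to 144 TPM with a median of 132 (log2 -0.42 ± 0.20 SE, limma adjusted p = 0.24). Gclc, not called, was lower in 8C -VE in each same-numbered pair. By number 1 to 7 it was 116, 112, 110, 41.6, 73.5, 59.9 and 144 TPM in 8C -VE. In ENR it was 129, 167, 140, 82.2, 85.3, 96.1 and 195 TPM. Of 12 enterocyte markers, 8 were called lower in 8C -VE than in ENR, with sums of 2992 to 6569.5 TPM, and their part in these differences was not tested. Nqo1 was not called (log2 -0.90 ± 0.35 SE, limma adjusted p = 0.13). Without the number 7 library of 8C -VE it was, at log2 -1.09 with a limma adjusted p of 0.049. Same-numbered libraries deviated together in this comparison (r from 0.313 to 0.642). With the replicate block 7 of the 10 members passed the adjusted p in limma, beside 19% of all genes. In the fit above without the block 4 members and 9.35% of all genes did, and 2 members were called in either fit.

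Adding both drugs to the basal medium, 8C against 8C -VE, lowered 3 alpha-class transferases and no other member, while 10.7% of all genes were called and 1.62% were called lower. Gsta1 was 78.1 to 349.7 TPM with a median of 179 with the drugs and 235 to 565 TPM with a median of 408 without them (log2 -1.28 ± 0.27 SE, limma adjusted p = 0.0022). Gsta2 (log2 -1.43 ± 0.36 SE, limma adjusted p = 0.008) and Gsta3 (log2 -1.41 ± 0.30 SE, limma adjusted p = 0.0021) fell with it. The ranges of 8C and 8C -VE overlapped for each of the 10 members. Gstm1 had a log2 difference of -0.61 ± 0.22 SE, limma adjusted p = 0.061 and Gstm3 of -0.42 ± 0.37 SE, limma adjusted p = 0.45. Gclc, Gclm, Nqo1, Txnrd1 and Gsta4 had limma adjusted p of 0.67, 0.59, 0.59, 0.81 and 0.52. Without the number 7 libraries the 3 calls remained, at log2 -1.46, -1.52 and -1.44. Of 11 enterocyte markers tested, 5 were called lower and 1 higher in 8C. Of 4 Paneth, 6 goblet and 5 crypt base stem cell markers, 3, 3 and 1 were called lower and none higher, and their part in the result was not tested.

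**Figure D2:**
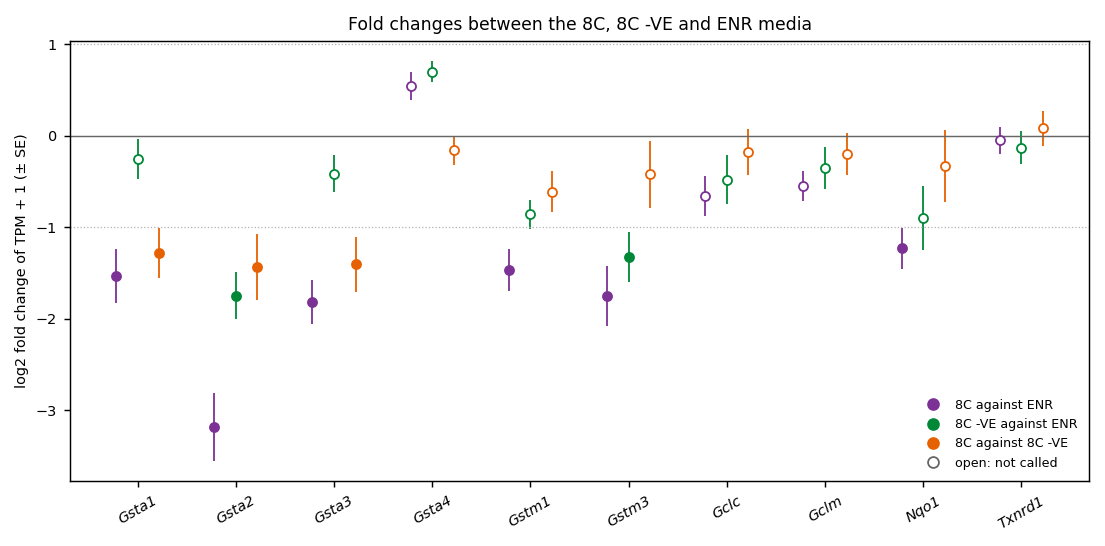
Log2 difference of TPM + 1 with its standard error (bars) for each gene in 8C against ENR, 8C -VE against ENR and 8C against 8C -VE, with filled points for calls. Gsta2 lies lowest in all 3 comparisons, at -3.18, -1.75 and -1.43, while Gsta4 lies above zero in both comparisons with ENR.

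Several members differed between the libraries numbered 1 to 3 and those numbered 4 to 6, so the pairwise comparisons made between 8C, 8C -VE, 8C -V, 8C -E and ENR were repeated within those sets. Nqo1 showed it most. In 8C -VE it was 183 to 190.4 TPM in libraries 1 to 3 and 44.9 to 67.7 TPM in libraries 4 to 6, with 261 TPM in number 7. In 8C it was 48.7 to 80.5 TPM in libraries 1 to 3 and 81.8 to 117 TPM in libraries 4 to 6. The difference between 8C and 8C -VE was therefore log2 -1.44 within 1 to 3 (limma adjusted p = 0.0026) and log2 0.82 within 4 to 6 (limma adjusted p = 0.0081), opposite in sign. Gsta3 was 132 to 144 TPM in 8C -VE libraries 1 to 3 and 54.0 to 80.3 TPM in 4 to 6, with log2 differences of -2.49 and -0.39 on adding both drugs. Only the first of these was called (limma adjusted p = 0.0001 and 0.16). Gsta2 likewise had -2.06 and -0.97, and Gsta1 had -1.22 and -1.70, which was called in both. In all, 5 members were called in libraries 1 to 3 (12.5% of all genes) and 1 in libraries 4 to 6 (12.8% of all genes). The difference between the sets was not tested, and what the numbers stand for is not stated in the labels.

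The comparison of 8C with ENR was repeated in the same sets. Within 1 to 3, 17.7% of all genes were called in 8C against ENR and within 4 to 6, 17.3%. Gsta2 was lower in 8C by log2 -4.48 and -2.47, Gsta3 by -2.66 and -1.29, Gstm1 by -2.13 and -1.20, and Gstm3 by -2.76 and -1.29. Each of these 4 genes was called in both sets, the direction being shared and the size larger in 1 to 3. Gsta1 (log2 -1.42, limma adjusted p = 0.098) and Nqo1 (log2 -0.85, limma adjusted p = 0.00074) missed the call within 4 to 6. Gclc was called only within 1 to 3 (log2 -1.04, limma adjusted p = 0.023), which is not a test that the sets differ. Txnrd1 had opposite signs, at log2 -0.44 (limma adjusted p = 0.11) within 1 to 3 and 0.28 (0.014) within 4 to 6, both under 2-fold.

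**Figure D3:**
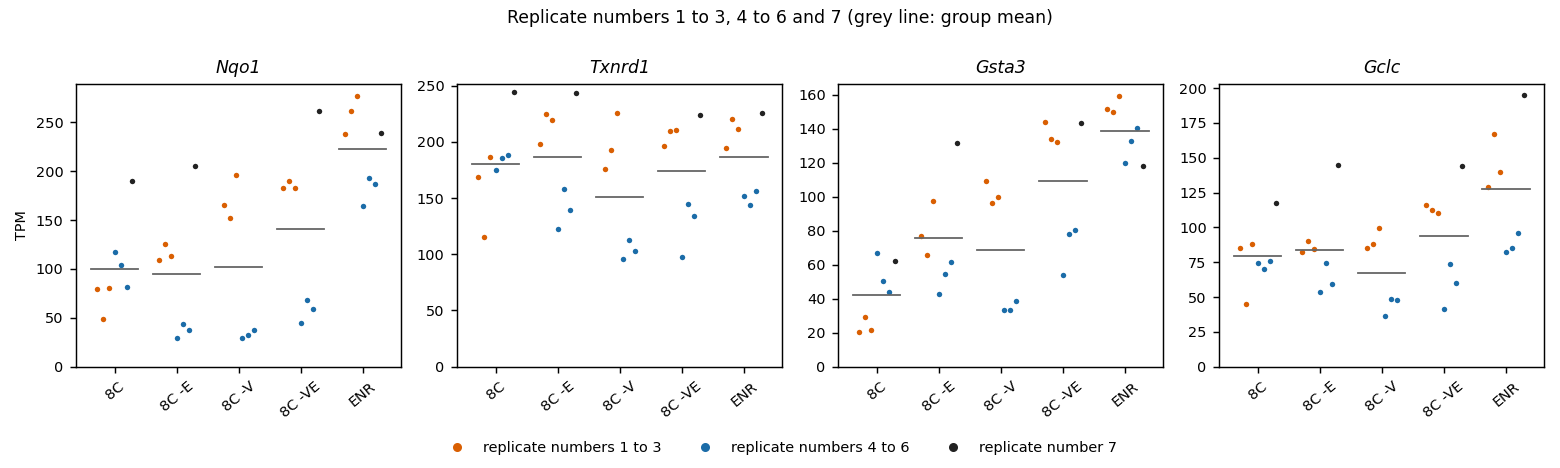
Level in TPM (linear axis from zero) of Nqo1, Txnrd1, Gsta3 and Gclc in each library of 5 media, coloured by replicate number, with the mean as a grey line. In 8C -VE the Nqo1 libraries numbered 4 to 6 lie at 44.9 to 67.7 TPM and the others at 183 to 261 TPM, whereas in 8C the number 1 to 3 libraries are the lowest.

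Each drug was then taken alone. Adding VPA to the basal medium (8C -E against 8C -VE) called no member, with 4.18% of all genes called. An unadjusted p under 0.05 in limma was found in 2 members and 20.8% of all genes. Gsta2 was 6.52 to 57.7 TPM with a median of 12.7 in 8C -E and 20.4 to 57.4 TPM with a median of 28.0 in 8C -VE (log2 -0.90 ± 0.35 SE, limma adjusted p = 0.13). The number 7 library of 8C -E held the highest value. Without it Gsta2 was called, at log2 -1.22 with a limma adjusted p of 0.0022, and without both number 7 libraries at log2 -1.05 with 0.0011. Same-numbered libraries deviated together in this comparison. Nqo1, in the order of the numbers 1 to 7, was 109, 125, 113, 29.0, 44.0, 37.6 and 205 TPM in 8C -E and 183, 190.4, 183, 44.9, 67.7, 59.0 and 261 TPM in 8C -VE, lower with VPA in 7 of 7 same-numbered pairs. Gsta3 was also lower in 7 of 7, at 77.1, 65.5, 97.4, 42.8, 54.7, 61.4 and 132 TPM and 144, 134, 132, 54.0, 78.3, 80.3 and 143 TPM. With the replicate block 6 of the 10 members passed the adjusted p, all lower with VPA and all under 2-fold, and so did 35.7% of all genes in that fit. They were Nqo1 (log2 -0.61, limma adjusted p = 1.2e-05), Gsta2 (-0.90, 0.0015), Gsta3 (-0.53, 0.0022), Gsta1 (-0.51, 0.0084), Gclm (-0.19, 0.027) and Gstm3 (-0.45, 0.046). Adding EPZ6438 (8C -V against 8C -VE) called Gsta2 alone, with 3.22% of all genes called. Its levels were 8.53 to 18.9 TPM with a median of 14.1 in 8C -V, and did not overlap 8C -VE (log2 -1.06 ± 0.22 SE, limma adjusted p = 0.0089). That call sits near the 2-fold requirement. With the replicate block, in a comparison where same-numbered libraries deviated together, it was log2 -0.90 (limma adjusted p = 0.00057) and no longer called, as it was without 8C -V replicate 6 (log2 -0.95) or without 8C -VE replicate 7 (log2 -0.90). With that block 6 other members passed the adjusted p at under 2-fold, in a fit where 28% of all genes passed it: Gsta3 (log2 -0.70), Gstm1 (-0.47), Nqo1 (-0.44), Gclc (-0.34) and Gclm (-0.23) lower and Gsta4 (0.16) higher. Marker sums moved beside these values. Paneth sums were 6571 to 10485 TPM in 8C -VE, 2717 to 5662 TPM in 8C -E and 4871 to 6248 TPM in 8C -V, and enteroendocrine sums were 353 to 876, 250.01 to 472 and 738 to 1752 TPM. On adding VPA, 4 of 11 enterocyte, 2 of 4 Paneth, 3 of 6 goblet, 1 of 4 enteroendocrine and 1 of 2 tuft cell markers were called lower and none higher. On adding EPZ6438, 2 of 12 enterocyte and 2 of 4 enteroendocrine markers were called higher and 1 of 5 crypt base stem cell markers lower. The part of these markers was not tested.

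Taking VPA out of the full medium (8C -V against 8C) raised Gsta1 and no other member, with 5.2% of all genes called. Gsta1 was 299.6 to 621 TPM with a median of 382 without VPA and 78.1 to 349.7 TPM with a median of 179 with it (log2 1.34 ± 0.28 SE, limma adjusted p = 0.0052). Of the markers, 4 of 12 enterocyte, 4 of 4 Paneth, 2 of 6 goblet, 2 of 2 tuft and 1 of 5 crypt base stem cell genes were called higher on this removal and none lower. Enterocyte sums were 3851 to 7147 TPM in 8C -V, and Paneth sums were 4871 to 6248 TPM there and 767 to 2748 TPM in 8C, with no overlap. Their part was not tested. Within libraries 1 to 3, 5 members were called higher (5.28% of all genes): Gsta1 at log2 1.16, Gsta2 at 1.33, Gsta3 at 2.07, Gstm3 at 1.38 and Nqo1 at 1.31. Within libraries 4 to 6, where 9.07% of all genes were called, Nqo1 was called lower (log2 -1.57, limma adjusted p = 8.6e-05) and Gsta1 had log2 1.64 with 0.095. Nqo1 in 8C -V was 152 to 196 TPM in libraries 1 to 3 and 29.1 to 37.99 TPM in libraries 4 to 6. Taking EPZ6438 out (8C -E against 8C) called no member, with 4.2% of all genes called. In 2 members and 14.7% of all genes, the unadjusted p was under 0.05 in limma. Of 4 Paneth markers 2 were called higher there, and of 4 enteroendocrine markers 3 lower, and their part was not tested. The highest estimates were those of Gsta3 (log2 0.88 ± 0.29 SE, limma adjusted p = 0.1) and Gsta1 (log2 0.77 ± 0.28 SE, limma adjusted p = 0.14). Within the sets, 1 member was called in each: Gsta3 higher in libraries 1 to 3 (log2 1.71, with 6.11% of all genes called) and Nqo1 lower in libraries 4 to 6 (log2 -1.44, with 5.84% called).

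The interaction of VPA and EPZ6438, which asks whether the drugs together differ from the sum of each alone on the log2 scale, called no member, with 0.653% of all genes called. At an unadjusted p under 0.05 in limma were 1 member and 3.81% of all genes. The estimates for the 10 members ran from log2 -0.83 to 0.91.

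Both drugs in ENR medium called no member, with 8.87% of all genes called. An unadjusted p under 0.05 in limma was found in 3 of the 10 members and 31.3% of all genes, about the same share. Gstm1 was 1468, 1631 and 1485 TPM and Gstm3 1464, 1504 and 1465 TPM in the 3 ENR +VE libraries, within the pooled ENR ranges. Those libraries carry the numbers 1 to 3. They lay below every ENR library of those numbers (1712 to 2065 TPM for Gstm1 and 1794 to 2039 TPM for Gstm3). Every ENR library numbered 4 to 6 lay below them (1096 to 1450 and 956 to 1141.5 TPM). With the replicate block 8 members passed the adjusted p in limma, none called, beside 36.2% of all genes. Same-numbered libraries did not all deviate together there (r from -0.207 to 0.559). Gsta3 was 69.4, 71.4 and 92.5 TPM, below every ENR library, but its log2 difference of -0.83 ± 0.12 SE, limma adjusted p = 0.00059 stayed under 2-fold. Nqo1 was 147, 155 and 157 TPM, also below every ENR library (log2 -0.51 ± 0.16 SE, limma adjusted p = 0.038), as was Gsta4 at 462, 465 and 471 TPM (log2 -0.24 ± 0.13 SE, limma adjusted p = 0.23). Enterocyte marker sums were 14571 to 16349 TPM in ENR +VE, inside the ENR range, and no enterocyte marker was called. Paneth sums were 2959.9 to 3299 TPM, below the 7855 to 9410.0 TPM of ENR, with 2 of 4 markers called lower, and enteroendocrine sums were 1202 to 1281 TPM, above the 543 to 788 TPM of ENR, with 1 of 4 called higher. Of 5 crypt base stem cell markers 1 was called lower, and the part of these markers was not tested. The effect of both drugs was compared between the 8C and ENR media with an interaction term, which called no member, with 0.643% of all genes called. In 1 member and 6.44% of all genes, the unadjusted p was under 0.05 in limma. Gsta1 had the largest estimate, log2 -1.43 ± 0.43 SE, limma adjusted p = 0.2. Its mean with and without the drugs was 177 and 399.7 TPM in 8C media, and 516 and 488 TPM in ENR media. By number, Gsta1 in ENR was 638 to 687 TPM in libraries 1 to 3 and 336 to 450 TPM in 4 to 6. The ENR +VE libraries, all numbered 1 to 3, had 456, 503 and 588 TPM. Without 8C replicate 4, whose Gsta1 level of 349.7 TPM was the highest of its group, the estimate was -1.62 with a limma adjusted p of 0.049.

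Among the omissions of other 8C components, no member was called. Without the GSK3 inhibitor limma called no gene at all (0% of 12806 tested), although 836 genes (6.53%) and 5 members had an unadjusted p under 0.05. Gstm3 was 1324, 1111 and 877 TPM and Gstm1 1204, 997 and 902 TPM in 8C -GSK3i, above every 8C library but number 7. Their log2 differences were 1.37 ± 0.45 SE, limma adjusted p = 0.73 for Gstm3 and 0.88 ± 0.30 SE, limma adjusted p = 0.74 for Gstm1. The omission libraries carry the numbers 1 to 3, but these did not pair them with 8C libraries (r of same-numbered deviations from -0.374 to 0.0376). Against 8C libraries 1 to 3 alone, 4 members were called higher (7.12% of all genes): Gsta2 at log2 2.10, Gstm3 at 1.93, Gsta3 at 1.52 and Gstm1 at 1.23, with limma adjusted p from 0.0025 to 0.0064. Against 8C libraries 4 to 6 alone, limma called none of the 10 (0.0551% of all genes), with 5 members and 8.42% of all genes at an unadjusted p under 0.05, and Gstm3 at log2 1.32 (limma adjusted p = 0.33). Enterocyte marker sums were 6144 to 8229 TPM without the GSK3 inhibitor and tuft sums 7.52 to 8.86 TPM, both above every 8C library, with no marker called, and their part was not tested.

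Without EGF, Gsta1 was 67.4, 44.4 and 69.9 TPM, below every 8C library, and its log2 difference of -1.41 ± 0.37 SE had a limma adjusted p of 0.13, with 0.451% of all genes called. At an unadjusted p under 0.05 were 2 members and 12.7% of all genes. Enterocyte marker sums were also below 8C there, at 1575 to 1667 TPM, with 2 of 11 markers called lower. Paneth sums were above 8C, at 3732 to 4201 TPM with 1 of 4 markers called higher, and so were crypt base stem cell sums, at 1852 to 2698 TPM with 1 of 5 called higher. Their part was not tested. Without Pexmetinib, with 0.482% of all genes called, no member was called. An unadjusted p under 0.05 in limma was found in 2 members and 13% of all genes. Gclm, the regulatory subunit of glutamate-cysteine ligase, was 34.0, 41.2 and 37.0 TPM in 8C -Pex, below every 8C library (log2 -0.52 ± 0.20 SE, limma adjusted p = 0.3). Nqo1 was 38.6, 71.2 and 41.0 TPM (log2 -0.93 ± 0.33 SE, limma adjusted p = 0.27). Marker sums above every 8C library there were goblet at 5639 to 8098 TPM (3 of 6 called higher), enteroendocrine at 1789.9 to 2300.4 TPM (0 of 4 called) and tuft at 15.4 to 23.8 TPM (2 of 2 called higher). Of 4 Paneth markers 2 were called higher, and the part of these markers was not tested. Without bFGF no member was called and none had an unadjusted p under 0.05 in limma, with 0.00779% of all genes called, 5.56% at that unadjusted p, and estimates between log2 -0.33 and 0.19.

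Other genes of the pathway were taken from lists drawn up by function. The 8 regulators, among them Nfe2l2, Keap1 and Bach1, gave no call in any of the 14 organoid comparisons, with at most 2 of the 8 at an unadjusted p under 0.05 in limma. The level of Nfe2l2 itself was 84.8 to 214 TPM with a median of 132 in 8C and 100.0 to 304 TPM with a median of 221 in ENR. By number it was lower in 8C each time. In libraries 1 to 3 it was 132 to 150 TPM in 8C, 221 to 257 in ENR and 237 to 245 in 8C -VE. In libraries 4 to 6 it was 84.8 to 93.3, 100.0 to 118 and 108 to 126 TPM, and in number 7 it was 214, 304 and 239 TPM. Of 19 other NRF2 targets tested, 4 rose on adding both drugs to the basal medium and none fell, with 9.06% of all genes called higher. They were the carbonyl reductase Cbr3 (399 against 195 TPM, log2 1.20 ± 0.28, limma adjusted p = 0.0041), the haem oxygenase Hmox1 (47.5 against 21.8 TPM, log2 1.19 ± 0.29, limma adjusted p = 0.006), the biliverdin reductase Blvrb (87.2 against 39.5 TPM, log2 1.13 ± 0.15, limma adjusted p = 2.2e-05) and the malic enzyme Me1 (62.3 against 27.7 TPM, log2 1.07 ± 0.32, limma adjusted p = 0.021). The median of the 19 was log2 0.15, compared with 0.013 over all genes. In 8C against ENR, beside 11.9% of all genes higher and 3.31% lower, 2 of the 19 were called higher, Abcc4 (30.0 against 9.27 TPM, log2 1.57 ± 0.16, limma adjusted p = 1.1e-06) and Blvrb (87.2 against 29.8 TPM, log2 1.52 ± 0.14, limma adjusted p = 2.1e-07), and 2 lower, Ugdh (79.6 against 238 TPM, log2 -1.55 ± 0.22, limma adjusted p = 3e-05) and Osgin1 (45.1 against 94.0 TPM, log2 -1.27 ± 0.42, limma adjusted p = 0.026). In 8C -VE against ENR, Abcc4 (log2 1.10) was called higher and 5 lower, beside 1.13% and 2.07% of all genes, Osgin1 (-1.72), Hmox1 (-1.41), Cbr3 (-1.27), Ugdh (-1.19) and Me1 (-1.16). Removing VPA lowered 2 of them, beside 520 of all 12723 genes tested, Cbr3 (204 against 399 TPM, log2 -1.32 ± 0.39, limma adjusted p = 0.036) and Hmox1 (23.3 against 47.5 TPM, log2 -1.09 ± 0.28, limma adjusted p = 0.02). In ENR +VE against ENR, Me1 (253 against 61.5 TPM, log2 2.08 ± 0.24, limma adjusted p = 9.1e-05) and Blvrb (66.6 against 29.8 TPM, log2 1.14 ± 0.16, limma adjusted p = 0.00037) were called higher and none lower. Of all 12324 genes tested there, 1002 were called higher and 91 lower. Cbr3 also fell on removing Pexmetinib (log2 -1.06, limma adjusted p = 0.032).

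Other transferases were mixed. Of 18 tested in 8C against ENR, 3 were called lower and 2 higher, beside 3.31% and 11.9% of all genes, with a median of log2 -0.31 compared with 0.078 over all genes. The microsomal Mgst2 (35.7 against 106 TPM, log2 -1.50 ± 0.17, limma adjusted p = 3.3e-06) and the mu-class Gstm4 (64.2 against 136 TPM, log2 -1.11 ± 0.27, limma adjusted p = 0.0042) and Gstm7 (41.1 against 84.1 TPM, log2 -1.02 ± 0.23, limma adjusted p = 0.002) fell beside Gstm1 and Gstm3. The omega-class Gsto2 (2.89 against 0.572 TPM, log2 1.15 ± 0.29, limma adjusted p = 0.005) and the kappa-class Gstk1 (52.2 against 24.5 TPM, log2 1.06 ± 0.14, limma adjusted p = 2e-05) rose. Among 16 genes of glutathione synthesis, recycling and peroxidases, the gamma-glutamyltransferase Ggt1, which breaks down extracellular glutathione at the brush border, fell most (2.24 against 80.5 TPM, log2 -4.47 ± 0.47, limma adjusted p = 1.3e-06), and was also lower in 8C than in 8C -VE (2.24 against 10.4 TPM, log2 -1.96 ± 0.29, limma adjusted p = 6.6e-05). The cystathionine gamma-lyase Cth fell (109 against 236 TPM, log2 -1.10 ± 0.17, limma adjusted p = 8e-05) and the gamma-glutamylcyclotransferase Ggct rose (10.1 against 3.98 TPM, log2 1.15 ± 0.10, limma adjusted p = 1.6e-07). In 8C -VE against ENR, Gstm4 (log2 -1.46), Mgst2 (-1.08), Gstm7 (-1.02), Ggt1 (-2.51), Cth (-1.08) and Cbs (-1.54), the enzyme before Cth in the route from homocysteine to cysteine, were called lower, 3 of 17 transferases and 3 of 16 of the other list beside 2.07% of all genes. Ggt1 was lower on adding VPA (log2 -2.07, limma adjusted p = 8.2e-05) and higher on removing it (log2 1.81, limma adjusted p = 0.00091). The secreted glutathione peroxidase Gpx3 was higher on adding EPZ6438 (log2 1.05, limma adjusted p = 0.039) and lower on removing it (log2 -1.25, limma adjusted p = 0.0014). Gstk1 rose on adding both drugs to the basal medium (log2 1.22, limma adjusted p = 5.5e-06). In ENR +VE against ENR the pi-class Gstp2 fell (log2 -1.31, limma adjusted p = 5.3e-07), and Gsto2 (log2 1.20, limma adjusted p = 0.0009), Gstk1 (log2 1.10, limma adjusted p = 0.00052) and Ggct (log2 1.07, limma adjusted p = 4e-05) rose. Of these lists Cbs alone was called for the difference of the drug effect between media (log2 1.75, limma adjusted p = 0.029).

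Across the 49 organoid libraries the gene most like each member was found by Pearson r on log2(TPM + 1) among 11840 genes. These libraries share media and replicate numbers, so r is a description with no test. Gsta2 and Gstm1 had the carboxylesterase Ces1f first and Gstm3 had it second, with r = 0.959, 0.960 and 0.919. Gsta2 and Gstm1 were at r = 0.944 with one another, and Gstm1 and Gstm3 at 0.940. Gclc, Gclm and Nqo1 each had the glutathione reductase Gsr first, with r = 0.946, 0.941 and 0.936. Gclc and Gclm were at r = 0.923 with one another, and Mafg, a small MAF partner of NRF2, was second for Gclm at 0.934. Txnrd1 was most like Pdp2 and Lrp8, Gsta3 most like Gramd2 (0.862), Gsta1 most like Rbp2, and Gsta4 like S100a6 at 0.82.

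In crypts the members were followed for 5 days after 12 Gy. Levels are not set against organoids, whose preparation differs. The median gene itself moved: it stood at log2 -0.36 on day 1, -0.61 on day 2, -1.03 on day 3 and 0.27 on day 5 relative to Normal. Mitochondrial transcripts took 12.7% to 18.1% of the sum in Normal and 37.9% to 48.4% in IR day 3. With mitochondrial genes removed and TPM rescaled, 4 members were called on day 3, compared with 7 in the reported fit. Gsta1 (log2 -0.50), Nqo1 (-0.46) and Txnrd1 (-0.51) lost their calls there. Beyond that refit the part of these transcripts was not tested. Because the median gene moved, changes are also given relative to the median of all genes. With 2 libraries in each group, the fit pooled the spread over all 9 crypt groups. The 4 IR comparisons share the same 2 Normal libraries. When the 9 groups were ordered by mean, IR +VE day 5 came highest for 8 members, all but Gclc and Gclm, for which IR +VE day 2 did.

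Gsta4 and Gsta3 were called higher on all 4 days. Gsta4 was 67.3 and 70.8 TPM in Normal, then 278 and 244 TPM on day 1, 251 and 317 on day 2, 177 and 229 on day 3 and 260.3 and 333 on day 5. Every irradiated library lay above both Normal libraries. Its log2 changes were 1.90 ± 0.24 SE, 2.02 ± 0.24 SE, 1.53 ± 0.24 SE and 2.08 ± 0.24 SE, with limma adjusted p of 0.00019, 2.3e-05, 5.5e-05 and 2.6e-05, or 2.26, 2.63, 2.56 and 1.80 relative to the median gene. Gsta3 was 12.1 and 5.28 TPM in Normal and 39.2 and 56.2 on day 1, 21.0 and 35.6 on day 2, 23.1 and 31.6 on day 3 and 61.5 and 65.5 on day 5. Here too no irradiated library fell within the Normal range. The log2 changes of Gsta3 were 2.41 ± 0.34 SE, 1.65 ± 0.34 SE, 1.63 ± 0.34 SE and 2.83 ± 0.34 SE, with limma adjusted p of 0.00061, 0.0015, 0.00064 and 4.7e-05.

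The closely related Gsta1 and Gsta2 were both called higher on day 1. Gsta1 was 351 and 188 TPM in Normal, 571 and 546 on day 1, 359 and 499 on day 2, 102 and 129.7 on day 3 and 516 and 499.5 on day 5. It was called higher on day 1 (log2 1.12 ± 0.27 SE, limma adjusted p = 0.019) and lower on day 3 (log2 -1.15 ± 0.27 SE, limma adjusted p = 0.0015). The day 3 fall was -0.12 relative to the median gene, and its sign turned to 0.11 when libraries were scaled to their 75th percentile. Gsta2, low in crypts, was 2.84 and 1.18 TPM in Normal, 6.41 and 8.59 on day 1, 3.02 and 5.11 on day 2, 0.686 and 1.58 on day 3 and 10.99 and 10.2 on day 5. Gsta2 was called higher on day 1 (log2 1.54 ± 0.33 SE, limma adjusted p = 0.0088) and day 5 (log2 2.00 ± 0.33 SE, limma adjusted p = 0.0005). On day 2 neither gene was called in the reported fit, but both were called higher under other scalings. Gsta1 was log2 1.34 at the 75th percentile and 1.16 without mitochondrial genes. Gsta2 was log2 1.23 and 1.21 there, and 1.40 under quantile normalization. The day 1 calls of both genes rested on few libraries, since without Normal replicate 2 they were log2 0.67 and 1.13 with limma adjusted p of 0.19 and 0.096. Without IR day 1 replicate 2 these p were 0.095 and 0.08. On day 1, then, 4 members were called higher and none lower, all of the alpha class, with 6.92% of all genes called and 1.43% called higher.

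**Figure D4:**
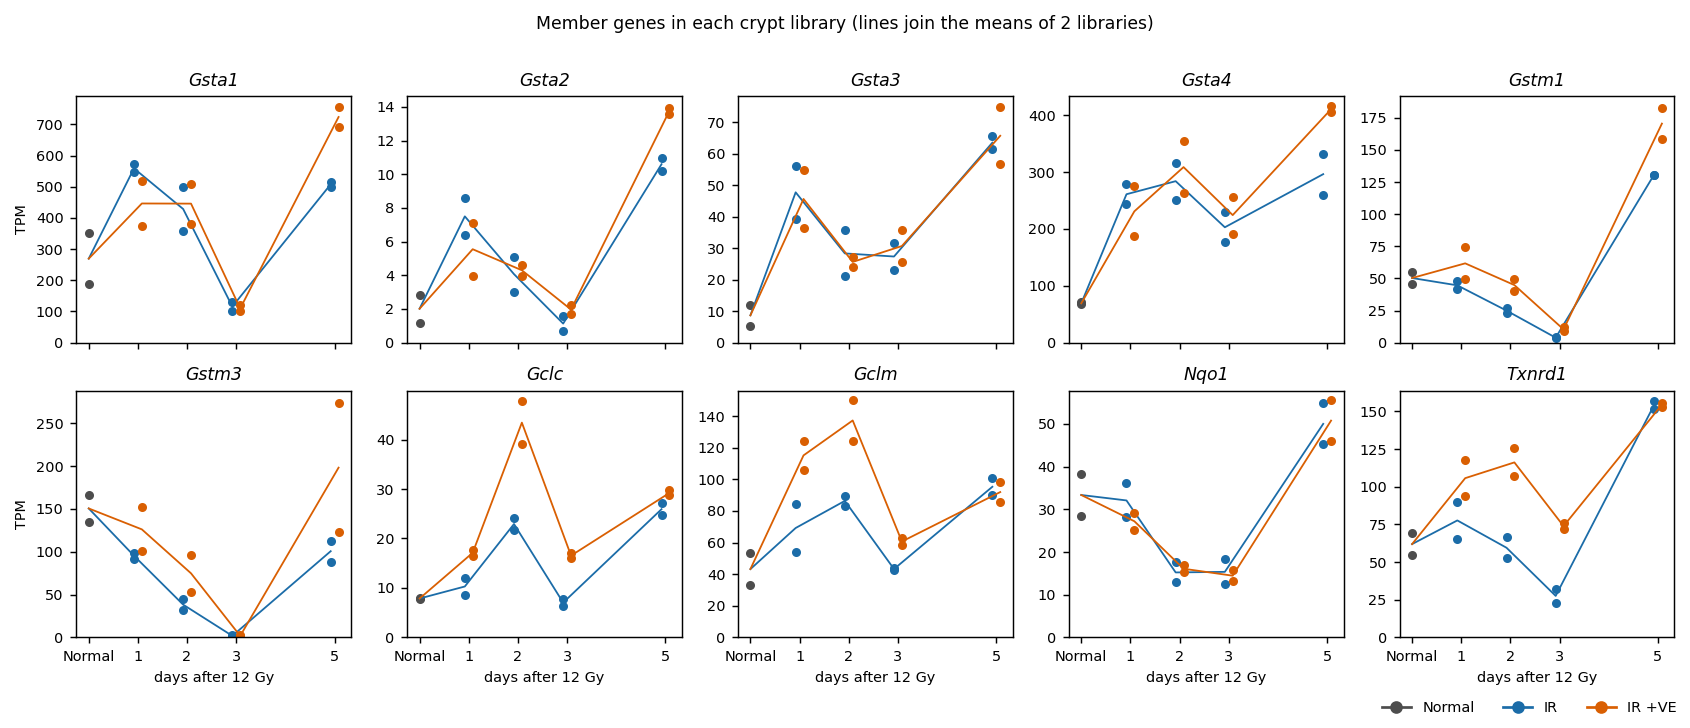
Level in TPM (linear axis from zero) of the 10 genes in each of the 2 libraries of every crypt group, unirradiated or 1 to 5 days after 12 Gy, with lines through the means of the groups without (IR) and with (IR +VE) the drugs. Gstm3 runs from 167 and 134 TPM in Normal to 2.67 and 0.959 TPM in IR day 3, while Gsta4 stays above both Normal libraries on every day.

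Of the mu class, Gstm3 was called lower on days 2 and 3 and Gstm1 on day 3, and Gstm1 was called higher than Normal on day 5. Gstm3 was 167 and 134 TPM in Normal, 99.0 and 91.7 on day 1, 45.0 and 31.5 on day 2, 2.67 and 0.959 on day 3 and 113 and 88.5 on day 5. It was called lower on day 2 (log2 -1.96 ± 0.41 SE, limma adjusted p = 0.0018) and day 3 (log2 -5.81 ± 0.41 SE, limma adjusted p = 2.2e-07), the latter 56.2-fold on the log2(TPM + 1) scale and -4.78 relative to the median gene. Gstm1 was 45.9 and 54.7 TPM in Normal, 47.7 and 41.5 on day 1, 27.0 and 22.9 on day 2 (log2 -0.98 ± 0.23 SE, limma adjusted p = 0.0029, just under 2-fold) and 3.39 and 4.33 on day 3 (log2 -3.40 ± 0.23 SE, limma adjusted p = 9.8e-08). By day 5 it was 131 and 131 TPM, above Normal and called higher (log2 1.37 ± 0.23 SE, limma adjusted p = 0.00059), whereas Gstm3 was not called then (log2 -0.58 ± 0.41 SE, limma adjusted p = 0.31). Enterocyte marker sums were 8708 to 15997 TPM in Normal, 19651 to 21102 on day 1, 35369 to 44224 on day 2, 2593 to 8699 on day 3 and 12518 to 15074 on day 5. On day 2, when Gstm3 was lower, 7 of 12 enterocyte markers were called higher and none lower, and on day 3 9 of 12 were called lower. Of 4 crypt base stem cell markers, 4 were called lower on day 2 and 3 on day 3. Their part in the member values was not tested.

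Both glutamate-cysteine ligase subunits rose on days 2 and 5. Gclc was 7.69 and 8.04 TPM in Normal, 24.2 and 21.7 on day 2 (log2 1.43 ± 0.20 SE, limma adjusted p = 9.5e-05), 6.39 and 7.68 on day 3 and 24.7 and 27.2 on day 5 (log2 1.60 ± 0.20 SE, limma adjusted p = 6e-05). Gclm was 53.4 and 33.0 TPM in Normal, 89.6 and 83.2 on day 2 (log2 1.02 ± 0.24 SE, limma adjusted p = 0.003), 42.7 and 43.9 on day 3 and 89.8 and 101 on day 5 (log2 1.16 ± 0.24 SE, limma adjusted p = 0.0026). On day 3 neither was called, at log2 -0.15 ± 0.20 SE and 0.04 ± 0.24 SE, though they were 0.89 and 1.08 above the median gene, and both were called higher under 2 other scalings. Gclc was log2 1.06 and Gclm 1.03 under quantile normalization, and 1.00 and 1.29 at the 75th percentile. The day 2 call of Gclm lapsed without Normal replicate 2 (log2 0.68) or IR day 2 replicate 1 (log2 0.97), and its day 5 call without Normal replicate 2 (log2 0.82).

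Nqo1 and Txnrd1 were called lower on day 3 by about the amount that the median gene moved. Nqo1 was 38.2 and 28.5 TPM in Normal, 12.9 and 17.6 on day 2 (log2 -1.08 ± 0.24 SE, limma adjusted p = 0.0022) and 12.5 and 18.3 on day 3 (log2 -1.08 ± 0.24 SE, limma adjusted p = 0.00095), the latter -0.044 relative to the median gene. Its sign on day 3 turned under 2 other scalings, to 0.017 under quantile normalization and 0.14 at the 75th percentile. On day 2 it was -0.47 relative to the median gene, and the call lapsed under quantile normalization (log2 -0.50), at the 75th percentile (-0.49) and without mitochondrial genes (-0.68). Its day 2 and day 3 calls also lapsed without Normal replicate 1, at log2 -0.88 and -0.87. Txnrd1 was 54.7 and 69.2 TPM in Normal, 23.0 and 32.1 on day 3 (log2 -1.15 ± 0.22 SE, limma adjusted p = 0.00027, -0.12 relative to the median gene, and 0.091 at the 75th percentile) and 157 and 152 on day 5 (log2 1.31 ± 0.22 SE, limma adjusted p = 0.00058). By day 5 Nqo1 was 54.8 and 45.2 TPM and not called (log2 0.58 ± 0.24 SE, limma adjusted p = 0.084).

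Over the days, 4 members were called higher and 2 lower on day 2, 2 higher and 5 lower on day 3, and 7 higher and none lower on day 5. The shares of all genes called were 30.8% on day 2 (4.55% higher, 26.2% lower), 53.8% on day 3 (2.56% higher, 51.3% lower) and 15.8% on day 5 (10.2% higher). The 5 lower on day 3 thus stood beside a fall of about the same share of all genes, and leaving out 1 library at a time gave 4 to 7 calls among the members that day. On day 5 the 7 calls became 6 under quantile normalization, without Gclm (log2 0.99), and 5 at the 75th percentile, without Gclm (0.81) and Txnrd1 (0.96).

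Giving VPA and EPZ6438 to irradiated mice was compared with irradiation alone on each day. What the mice without the drugs were gavaged with, if anything, is not given in the sources used here, so an effect of gavage or vehicle cannot be told apart from that of the drugs. On day 3, Txnrd1, Gstm1 and Gclc were called higher with the drugs, 3 of 10 members with 31.7% of all genes called and 31.6% called higher. Txnrd1 was 23.0 and 32.1 TPM without and 72.1 and 75.6 TPM with the drugs (log2 1.41 ± 0.22 SE, limma adjusted p = 0.00034). Gstm1 was 3.39 and 4.33 TPM and 8.72 and 11.9 TPM (log2 1.21 ± 0.23 SE, limma adjusted p = 0.00084), still below Normal. Gclc was 6.39 and 7.68 TPM and 16.0 and 17.1 TPM (log2 1.13 ± 0.20 SE, limma adjusted p = 0.00063). In each case both treated libraries were above both untreated ones. The median gene rose by 0.69 in the same comparison, so that relative to it the changes were 0.72, 0.52 and 0.44, and no member was called under quantile normalization or at the 75th percentile. Mitochondrial shares were 37.9% to 48.4% without and 25.4% to 41.5% with the drugs. With mitochondrial genes removed and TPM rescaled, 2 members were called and Gclc, at log2 0.92 (limma adjusted p = 0.0041), fell under 2-fold. Beyond that refit the part of these shares was not tested. Marker sums without and with the drugs on day 3 were 2593 to 8699 and 3579.8 to 3924 TPM for enterocytes, 10742 to 20766 and 21669.9 to 31008 TPM for Paneth cells, 78.2 to 148 and 237 to 250.1 TPM for enteroendocrine cells and 1.56 to 2.08 and 7.47 to 7.59 TPM for tuft cells. Of the markers tested, 1 of 12 enterocyte, 0 of 4 Paneth, 2 of 6 goblet, 2 of 3 enteroendocrine, 2 of 2 tuft and 1 of 4 crypt base stem cell genes were called higher and none lower, and their part was not tested. Gstm3 was not called, at 2.67 and 0.959 TPM without and 1.10 and 2.46 TPM with the drugs, nor were Gsta4 at log2 0.14 ± 0.24 SE and Gsta3 at log2 0.16 ± 0.34 SE.

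On day 1 limma called no member, with 0.00926% of all genes called. In 2 members and 13.2% of all genes, the unadjusted p was under 0.05. Gclm was 53.9 and 84.5 TPM without and 106 and 124 TPM with the drugs (log2 0.76 ± 0.24 SE, limma adjusted p = 0.26). On day 2 no member was called, with 8.38% of all genes called. At an unadjusted p under 0.05 in limma were 5 of the 10 members and 36.7% of all genes. Txnrd1 (log2 0.96 ± 0.22 SE, limma adjusted p = 0.031), Gclc (log2 0.89 ± 0.20 SE, limma adjusted p = 0.031) and Gstm1 (log2 0.82 ± 0.23 SE, limma adjusted p = 0.037) passed the adjusted p on day 2, as did 14.6% of all genes, but not the 2-fold requirement. The median gene stood at 0.42 there, and relative to it they were 0.54, 0.46 and 0.39. Without IR day 2 replicate 1, Txnrd1 passed both at log2 1.13. On day 5 no member was called and none had an unadjusted p under 0.05 in limma, with 0.0185% of all genes called and 1.65% at that unadjusted p. Averaged over the 4 days no member was called (3.55% of all genes), since none reached 2-fold, but 5 of the 10 passed the adjusted p, about the share of all genes that did (54.9%). They were Gclc (log2 0.72 ± 0.10 SE, limma adjusted p = 0.00076), Gstm1 (log2 0.71 ± 0.11 SE, limma adjusted p = 0.00079), Txnrd1 (log2 0.71 ± 0.11 SE, limma adjusted p = 0.00077), Gclm (log2 0.46 ± 0.12 SE, limma adjusted p = 0.0052) and Gstm3 (log2 0.54 ± 0.21 SE, limma adjusted p = 0.039). The median gene stood at 0.36 in that average. Whether the drug effect differed between days was tested with an F test over the 4 days, which called no member (1.75% of all genes). An unadjusted p under 0.05 in limma was found in 2 members and 28.1% of all genes. Txnrd1 had the lowest adjusted p at 0.057.

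**Figure D5:**
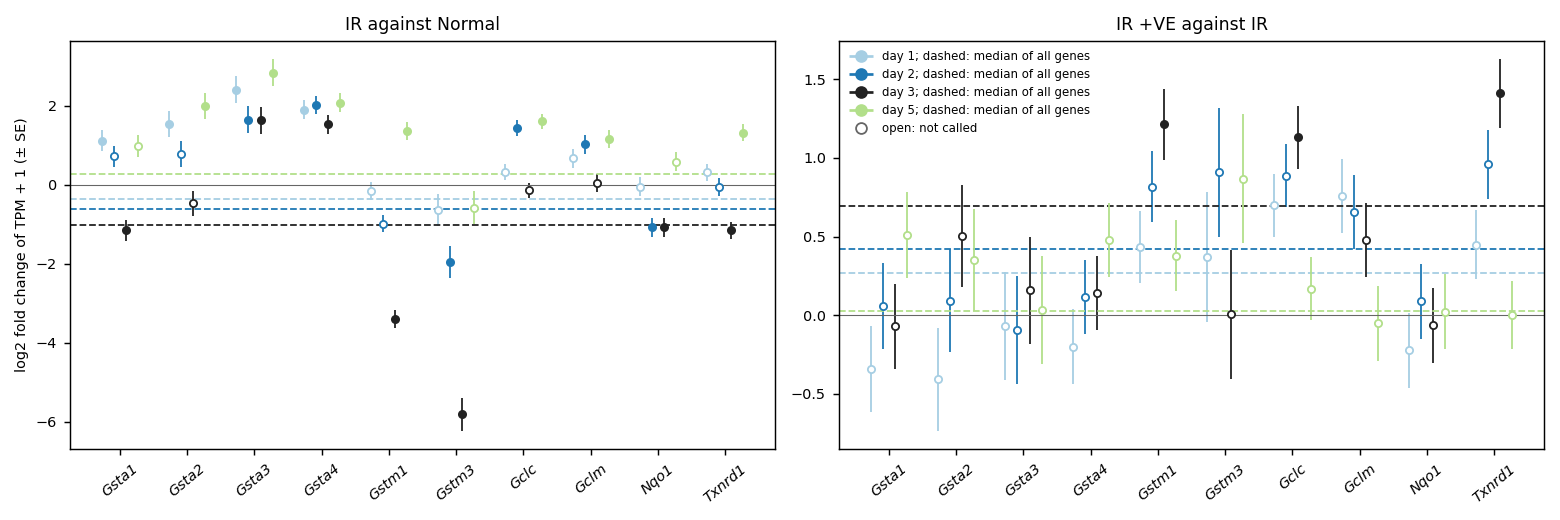
Log2 difference of TPM + 1 with its standard error (bars) of each gene, for IR against Normal and for IR +VE against IR on days 1, 2, 3 and 5, with filled points for calls and a dashed line for the median of all genes tested. Gstm3 and Gstm1 lie far below the median of -1.03 on day 3 at -5.81 and -3.40, while Gsta3 and Gsta4 lie above it on every day in IR against Normal.

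The 8 regulators of the pathway, with no call in organoids, gave calls in crypts. On day 1 the small MAF protein Maff was called lower (log2 -1.09, limma adjusted p = 0.036), with 5.48% of all genes lower. On day 2, 4 were called lower, Mafk (log2 -1.23), Nfe2l1 (-1.16), Maff (-1.11) and Nfe2l2 (-1.02), and 1 higher, beside the 26.2% of all genes called lower. On day 3, 6 were called lower and none higher, beside 51.3% of all genes lower, with Nfe2l2 at 11.6 and 16.2 TPM against 71.3 and 65.2 TPM in Normal (13.9 against 68.2 TPM, log2 -2.23 ± 0.20, limma adjusted p = 7.8e-07), and Keap1 also lower (6.84 against 19.4 TPM, log2 -1.38 ± 0.23, limma adjusted p = 0.00011). The others were Nfe2l1 (log2 -2.49), Mafk (-2.40), Cul3 (-1.74), which forms the ubiquitin ligase with KEAP1, and Maff (-1.72). The median of the 8 was log2 -1.73, compared with -1.03 over all genes. With the drugs on day 3, 6 of the 8 were called higher and none lower, beside 31.6% of all genes higher, Nfe2l2 reaching 35.8 and 34.3 TPM (35.1 against 13.9 TPM, log2 1.29 ± 0.20, limma adjusted p = 0.00034) and the related factor Nfe2l1 changing most (15.3 against 2.04 TPM, log2 2.43 ± 0.25, limma adjusted p = 0.00013). Mafg (log2 1.54), Cul3 (1.48), Mafk (1.25) and Maff (1.14) were the other 4. The median of the 8 was log2 1.27, compared with 0.69 over all genes. Bach1, a repressor that competes for the same sites, was called higher on day 2 (8.37 against 2.80 TPM, log2 1.26 ± 0.32, limma adjusted p = 0.0052) and day 5 (8.08 against 2.80 TPM, log2 1.25 ± 0.32, limma adjusted p = 0.01). On day 5 Mafk (log2 -1.20, limma adjusted p = 0.0069) and Maff (log2 -1.18, limma adjusted p = 0.012) were called lower, with 5.61% of all genes lower. With the drugs on day 2, Bach1 (log2 1.05, limma adjusted p = 0.044) and Nfe2l1 (log2 1.01, limma adjusted p = 0.033) were called higher, with 8.31% of all genes higher. Nfe2l1 was the 1 regulator called for a difference of the drug effect between days (limma adjusted p = 0.047). The genes of these lists were not refitted under the other scalings.

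Of 18 other NRF2 targets tested in crypts, 2 rose and 1 fell on day 1, 1 rose and 3 fell on day 2, 2 rose and 6 fell on day 3, and 7 rose with none falling on day 5. All genes were called lower at 26.2% on day 2 and 51.3% on day 3, shares above those of the list, and higher at 10.2% on day 5. The microsomal epoxide hydrolase Ephx1 was called higher on all 4 days, most on day 1 (86.2 against 5.92 TPM, log2 3.72 ± 0.25, limma adjusted p = 6.5e-07) and least on day 5 (21.0 against 5.92 TPM, log2 1.73 ± 0.25, limma adjusted p = 0.0002). Of the 7 on day 5, Cbr3 changed most (60.0 against 4.19 TPM, log2 3.52 ± 0.44, limma adjusted p = 7.9e-05), and G6pdx, which supplies NADPH (67.3 against 19.1 TPM, log2 1.77 ± 0.25, limma adjusted p = 0.00018) was another. Abcc4 (log2 2.20), Me1 (1.43) and Ugdh (1.37) were called with them, and Pgd had a smaller change. Cbr3 was also higher on day 1 (log2 1.85) and day 3 (1.67). Blvrb was lower on day 1 (log2 -1.28) and day 2 (-1.55), the export pump Abcc3 on day 2 (-1.54) and day 3 (-2.16), Osgin1 on day 2 (-1.42), and Tkt (-1.82) and Ugdh (-1.45) on day 3.

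The glutathione reductase Gsr, from a list of 16 genes of glutathione synthesis, recycling and peroxidases, also rose on day 5 (291 against 77.7 TPM, log2 1.89 ± 0.23, limma adjusted p = 5.5e-05). That list had no call on day 1, 2 higher and 1 lower on day 2, 1 higher and 6 lower on day 3, and 3 higher on day 5. Of all genes 6.92% were called on day 1. The shares called higher and lower were 4.55% and 26.2% on day 2 and 2.56% and 51.3% on day 3, and 10.2% were called higher on day 5. On day 2 the list genes called were Ggt1 (log2 1.82) and the 5-oxoprolinase Oplah (1.23) higher and the peroxidase Gpx1 (-1.59) lower. On day 5 they were Gsr, the glutathione-degrading Chac1 (1.80) and Gpx2 (1.19). On day 3 Cth (log2 -3.03), Hagh (-2.06), Slc3a2 (-1.90), Ggt1 (-1.48) and Gpx1 (-1.11) led those lower. Its 1 gene higher on day 3 was the epithelial glutathione peroxidase Gpx2 (3108 against 915 TPM, log2 1.76 ± 0.34, limma adjusted p = 0.0003). Osgin1 fell on day 3 (2.97 against 44.7 TPM, log2 -3.53 ± 0.47, limma adjusted p = 2.7e-05) and was higher with the drugs (18.0 against 2.97 TPM, log2 2.21 ± 0.47, limma adjusted p = 0.0021), as were 5 other targets of the 18, Abcc3 (log2 1.52), Abcc4 (1.34), Me1 (1.24), G6pdx (1.17) and Tkt (1.03), beside 31.6% of all genes higher. Gpx3 was called higher there too (log2 1.09, limma adjusted p = 0.0048). Osgin1 was the 1 target called with the drugs on day 2 (log2 1.59, limma adjusted p = 0.043), beside 8.31% of all genes higher.

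Of 17 other transferases, 14 were called lower on day 3 and none higher, beside 51.3% of all genes called lower. Their median was log2 -1.46 against -1.03 over all genes. Among them were Gstm2 (7.50 against 51.7 TPM, log2 -2.62 ± 0.25, limma adjusted p = 1.5e-06), a neighbour of Gstm1 and Gstm3, and the microsomal Mgst1 (178 against 1058 TPM, log2 -2.56 ± 0.30, limma adjusted p = 6.1e-06), followed by Mgst2 (log2 -2.03), Gstz1 (-1.88), Mgst3 (-1.82) and Gstm7 (-1.70). On day 2, 5 of the 17 were called lower, Gstp3 (log2 -1.47), Gstm2 (-1.44), Gstz1 (-1.37), Mgst1 (-1.30) and Gstt2 (-1.20), and Gstk1 higher (1.23). Of all genes 26.2% were called lower that day and 4.55% higher. On day 5 Gstm2 was lower (log2 -1.22) and Gstm4 higher (1.06), beside 5.61% of all genes called lower and 10.2% higher. With the drugs on day 3 none of the 17 was called, 1 had an unadjusted p under 0.05 in limma, and their median was log2 0.0069. Of all genes 31.6% were called higher there and 58.6% had such an unadjusted p.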

How the data were processed

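RNA libraries were sequenced by the study as paired reads. Per its methods and processing notes, reads were trimmed with Trimmomatic 0.39, mapped to mm10 with STAR 2.7.3a and assigned to genes with featureCounts. The authors then converted their gene counts to TPM, the unit of the deposited table, by a step not given in the sources used here, with 1 column for each library and no pooling. No count column was used, so the depth per library and its counting error are unknown.

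From those values log2(TPM + 1) was computed here, and genes averaging 1 TPM or more across a fit's libraries were tested with limma 3.58.1 in R 4.3.3 (moderated variances with a trend, robust). Each organoid comparison was fitted on its own groups, interactions on their 4 groups, and the 9 crypt groups in 1 fit. P-values were adjusted by Benjamini and Hochberg over all genes tested, 24 comparisons were made, and tests were two-sided. Interactions and the F test over days were called by adjusted p alone. Groups and replicate numbers came from the labels. The members and the gene lists were chosen with earlier results of these data known. Every member is described, and from each other list the genes called are named, at most 6 for each list and comparison by size of change. Other settings tried were quantile normalization, a pseudocount of 0.1, a 75th percentile scaling, a minimum of 5 TPM or none, removal of mitochondrial genes, the replicate block, all 10 organoid groups in 1 fit, the sets of replicate numbers, and each library left out. The setting with libraries numbered 1 to 6 was chosen after seeing the data. On simulated data for 8C against 8C -VE (12494 genes), 95 of 100 genes changed by 1.5 on the log2 scale and 99 of 100 changed by 2.5 were recovered, with 3 unchanged genes called. At 1.5, recovery was 94 of 100 for the interaction of the drugs (12418 genes, 5 unchanged called), 89 for ENR +VE (12116, 5), 87 for GSK3i removed (12689, 9), 78 for the drugs on day 2 (10601, 4), 100 for their mean over days (10591, 0) and 41 for their difference between days (10587, 13). The simulation drew the error of each library independently and changed only genes above a minimum level. It therefore gives no recovery for libraries that deviate together by replicate number, as those of the organoids did.

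Groups share replicate numbers, so it was checked whether same-numbered libraries deviated together from their group means. Every same-numbered pair correlated above 0.1 in 8C -VE against ENR (r from 0.313 to 0.642), VPA added (0.647 to 0.775), EPZ6438 added (0.690 to 0.774) and VPA removed (0.106 to 0.598), and the numbers were taken to pair the libraries there. Lists of glutathione and NRF2 genes and of markers for enterocytes, Paneth, goblet, enteroendocrine, tuft, crypt base stem, epithelial, immune and stromal cells were counted without a set test.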

Additional observations from a re-analysis of the deposited data

Results flagged for a closer look

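In 50 combinations of member and organoid group with 6 or 7 libraries, 4 had a library far from the others by Dixon's ratio, and chance gives about 1 in 20. All 4 were libraries numbered 7, each the highest of its group. They were Gsta2 in 8C -VE (57.4 TPM), Gsta2 in 8C -E (57.7 TPM), Gsta4 in ENR (766 TPM) and Gstm1 in 8C -E (1738 TPM). Mitochondrial shares of the libraries numbered 7 were 4.69% to 6.64%, and their part was not tested.

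Some members moved in opposite directions in the libraries numbered 1 to 3 and those numbered 4 to 6, with the ranges of the groups separate within each set. These differences between sets were not tested, and are given as the log2 difference in 1 to 3 minus that in 4 to 6. For Nqo1 they were -2.26 in 8C against 8C -VE, -2.88 in 8C against 8C -V and -2.20 in 8C against 8C -E. For Txnrd1 they were -0.98 in 8C against 8C -VE, -0.87 in 8C against 8C -E and -0.72 in 8C against ENR. For Gsta3 it was -2.64 in 8C against 8C -V, from -2.07 in 1 to 3 and 0.58 in 4 to 6. The labels do not say what the numbers stand for.

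In crypts, Gsta1 was lower with the drugs in both libraries on day 1 (log2 -0.34) and higher on day 5 (log2 0.51), a difference of -0.85. The F test over the 4 days gave Gsta1 a limma adjusted p of 0.39.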

How the results depend on the processing

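The 6 calls in 8C against ENR, the 2 in 8C -VE against ENR and the 1 on removing VPA gave counts of 4 to 7, 2 to 3 and 1 to 5 over all alternatives, and 48 of the 623 alternative tests of the 40 called members lost the call or changed sign. For sets of replicate numbers, members called were 5 (numbers 1 to 3) and 1 (4 to 6) in 8C against 8C -VE, 1 (1 to 3) and 1 (1 to 6) on adding VPA, 0 (1 to 3) and 0 (1 to 6) on adding EPZ6438, 5 (1 to 3) on removing VPA, and 1 in each set on removing EPZ6438. Nqo1 turned from -0.30 to 1.31 on removing VPA within numbers 1 to 3. With the replicate block 0 members were called on adding EPZ6438 and 4 on removing the GSK3 inhibitor, where no pair correlated above 0.1 and no library was most like its own number. The block changed no other call count by over 1.5 times. With only the 8C libraries 1 to 3, 4 were called on removing the GSK3 inhibitor and 2 on removing EGF, and with only 4 to 6 limma called 0 in each (5 and 3 at an unadjusted p under 0.05, beside 8.42% and 31.9% of all genes). With all 10 organoid groups in 1 fit, 0 were called on adding EPZ6438 and 1 on removing EGF. For IR day 3 against Normal, quantile normalization gave Gclc 1.06 and Nqo1 0.017, and the 75th percentile gave Gclc 1.00, Nqo1 0.14, Gsta1 0.11 and Txnrd1 0.091, each below zero in the reported fit. Without mitochondrial genes 4 members were called there. For the drugs on day 3, quantile normalization gave 0 calls and the 75th percentile 0. For the difference between days, a pseudocount of 0.1 gave 1 call and a minimum of 5 TPM gave 1. Leaving out 1 library at a time gave 0 to 1 calls on adding VPA, 0 to 1 on adding EPZ6438, 0 to 1 for the difference between media, 2 to 5 on IR day 1, 4 to 7 on IR day 3, 0 to 1 for the drugs on day 2 and 0 to 2 for the difference between days. Apart from these settings' own construction (fewer libraries, another scaling), the cause was not tested. With 2 crypt libraries a group, a lone library left by omission is assumed to vary like the other groups. Signal cannot be set against counting error, since the depth is unknown.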

Other observations

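Gm10639, the near-copy of Gsta2, and Gsta2 itself did not keep a fixed ratio across media. Gm10639 was 13.8 to 35.5 TPM in ENR and 3.12, 5.13 and 4.21 TPM in the 3 ENR +VE libraries, where Gsta2 was 63.9, 83.8 and 75.8 TPM. In 8C it was 0.216 to 10.8 TPM and in 8C -VE 6.12 to 24.6 TPM. Gm3776, the near-copy of Gsta1, was 242 to 566 TPM in ENR and 336, 382 and 396 TPM in ENR +VE. Gm10639 was singled out after its values were seen, and how reads were shared between the copies was not tested.

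The cystine transporter Slc7a11 and the sulfiredoxin Srxn1, further targets of NRF2, were not called in 8C against 8C -VE. Slc7a11 was 0.881 to 10.6 TPM in 8C, 0.706 to 17.8 TPM in 8C -VE and 2.19 to 9.61 TPM in ENR. Srxn1 was 67.9 to 186 TPM in 8C, 64.7 to 111 TPM in 8C -VE and 101 to 166 TPM in ENR. In libraries 1 to 3 it was 67.9 to 83.9 TPM in 8C and 96.0 to 111 TPM in 8C -VE, and in libraries 4 to 6 it was 120.0 to 160.2 and 64.7 to 68.5 TPM. The ranges were thus separate within each set and opposite in direction, a difference between sets that was not tested.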
